A study of Rattus norvegicus with 2 samples.

Results

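NF-kB is a family of dimeric transcription factors built from the Rel proteins. The genes described here are its 5 subunit genes (Nfkb1, Nfkb2, Rel, Rela and Relb), 4 genes for IkB proteins (Nfkbia, Nfkbib, Nfkbie and Nfkbiz) and Tnfaip3, 10 genes chosen by name. A target, the set of probes that reads 1 transcript record, was found for 7 of them, with 1 target of 5 probes each, among 15577 genes named on the arrays. Rel, Relb and Nfkbia matched none of the named targets and have no value here. A further 10078 of the 26419 targets stayed unnamed. In resting cells IkB proteins hold NF-kB dimers in the cytosol. IkB kinase marks the bound IkB for destruction, and the freed dimers enter the nucleus, where they switch on inflammatory and survival genes together with the genes of their own inhibitors. In pancreatic acinar cells NF-kB activation is known as an early event of experimental pancreatitis.

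The cells were AR42J, a rat line derived from an exocrine pancreatic tumour, grown in the same serum-containing medium in both groups. The control group was untreated, and the other group was given taurolithocholic acid 3-sulfate (TLC-S), a sulfated bile acid used to model biliary injury of acinar cells, at 200 µM for 20 min. Total RNA of each group was read on 1 one-colour array. With 1 array per group there was no replicate error, no p-value was computed, and each ratio compares these 2 arrays. The arrays read RNA, so the degradation of IkB proteins and the nuclear entry of the subunits were not measured. In bulk RNA, fewer expressing cells and less RNA per cell cannot be told apart.

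The intensity of random-sequence probes was 44.7 on the control array and 40.5 on the TLC-S array, and a value of 100 or more on both arrays was taken as the limit for a ratio. Of 26419 targets, 11292 reached it. Markers of the labelled cell type were largely low. Of 18 acinar secretory genes, 3 reached 100 on both arrays, all of them trypsinogens (Prss1, Prss2 and Prss3), whereas amylase (Amy2a3), Cpa1, Cela1, Pnlip and the acinar factor Ptf1a were under 100 on both. The trypsinogens were lower in TLC-S, with log2 ratios of -3.15, -3.14 and -2.85, and they make up most of the summed intensity of the acinar list, 29513 in control and 4510 in TLC-S. The median intensity of the list was 55.4 and 66.1. All 11 pan-leukocyte genes read on the arrays reached 100 on both, with sums of 25405 and 23920, and the part of either list in the results below was not tested. Genes named by gene ID or by the authors' symbol could only be at that limit, since the authors list only targets that reached it.

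The kB site, the DNA element bound by NF-kB, was searched for in the RefSeq promoters (GRCr8) of the genes, from 250 bases before to 50 bases after the annotated start, on both strands. The kB consensus, of 10 letters, was present in 7 of the 9 member promoters in the table, against 4.18% of 33469 rat promoters of the same length. Such matches are descriptions of letters, not of binding. The stretches below show each matched site with 10 bases on either side, because autoregulation through such sites is what this family is known for. Capitals mark the bases matched.
Nfkb1 (chr2:226805440-226805469, minus strand): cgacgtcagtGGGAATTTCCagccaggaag
Nfkb2 (chr1:255108344-255108373, plus strand): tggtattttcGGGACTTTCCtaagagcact
Rel (chr14:101922000-101922030, minus strand): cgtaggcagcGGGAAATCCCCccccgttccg
Nfkbia (chr6:78597084-78597113, minus strand): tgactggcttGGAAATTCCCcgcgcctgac
Nfkbie (chr9:22948017-22948046, minus strand): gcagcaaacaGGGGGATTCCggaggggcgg
Nfkbiz (chr11:58251698-58251727, plus strand): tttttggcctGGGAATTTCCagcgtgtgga
Tnfaip3 (chr1:15544130-15544159, minus strand): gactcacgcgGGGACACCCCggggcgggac
Tnfaip3 (chr1:15544015-15544056, minus strand): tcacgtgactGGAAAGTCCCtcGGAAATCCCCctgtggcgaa

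All 8 stretches are written 5′ to 3′ on the strand of the gene. The sites of Nfkbia and both sites of the longer Tnfaip3 stretch match on the opposite strand, and the 3 overlapping matches of Rel lie on both strands. Counting the start base as 0, the matches of Nfkb2 and Nfkbiz began at -20 and -13. That of Nfkbia began at -31, that of Rel at -82 and that of Nfkbie at -164. Nfkb1 was the 1 gene whose match lay after the annotated start, at 3 to 12. The letters matched in Nfkb1 and Nfkbiz were the same, as were those of Nfkbia when read on the opposite strand. In Rela and Nfkbib these letters were not found in this window.

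**Figure D1:**
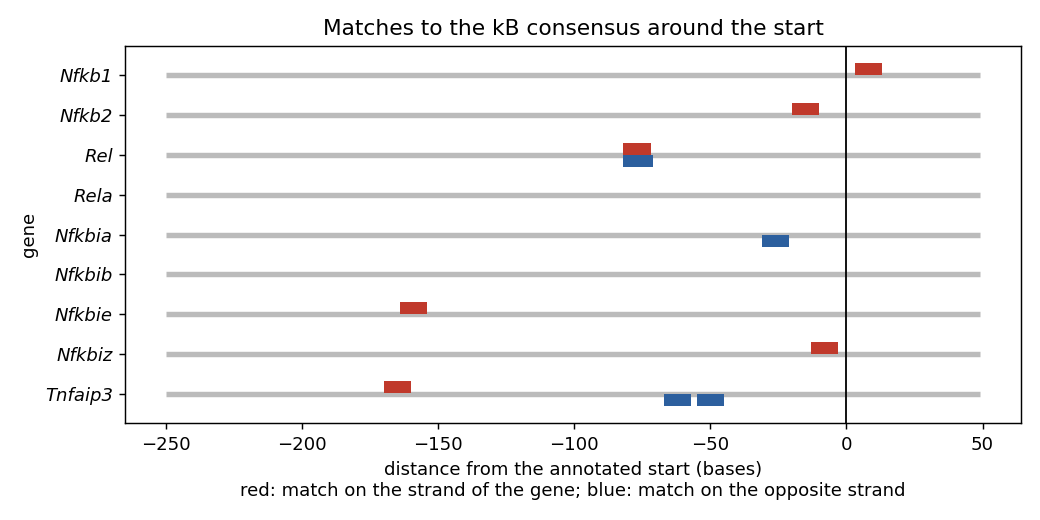
Position of each match to the kB consensus (10 bases) in the 9 RefSeq promoters of NF-kB genes, in bases from the annotated start (0), with grey lines for the 300 bases searched. Red blocks match on the strand of the gene and blue blocks on the opposite strand; Rela and Nfkbib have no block.

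Among the subunits, Nfkb1 gave the highest ratio. It encodes the precursor of p50, the DNA-binding partner of many NF-kB dimers. Control cells gave an intensity of 446 and TLC-S cells 1179. It was thus 2.64-fold higher in TLC-S, a log2 ratio of 1.40, and it was the 1 member past 2-fold. Over all targets that reached the limit, 9.95% passed 2-fold upwards and 4.41% downwards, so that 1 of 7 higher and 0 of 7 lower is near the background. Nfkb1 itself lay within the highest 3.24% of these targets. In the authors' deposited table of higher genes its fold is 2.64. Its target comes from a predicted RefSeq record, a kind for which 9.03% of targets were at least 2-fold higher, against 11.4% for curated records.

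Rela encodes p65, the subunit that carries the activation domain of the most common dimer. It read 1931 without and 3473 with TLC-S, which is 1.80-fold higher, and 15.1% of targets had a ratio at least as high. Nfkb2, the precursor of p52 in the alternative pathway, gave 1333 and 2053, which is 1.54-fold higher. Of all targets, 25.8% reached that ratio. The TLC-S array was thus the higher one for all 3 subunits read. At a threshold of 1.5-fold all 3 passed, as did 27.9% of all targets, and 0 members were lower, against 9.69% of all targets.

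The inhibitors gave smaller ratios of either sign. Nfkbib encodes IkB-beta, one of the proteins that retain Rela-containing dimers in the cytosol. It gave 2143 in control and 2824 in TLC-S, which is 1.32-fold higher, a ratio reached by 39.4% of targets. Tnfaip3 encodes A20, a ubiquitin-editing enzyme that shuts off signalling upstream of IkB kinase and is itself a well known NF-kB target. Its intensity was 1461 and 1587, which is 1.09-fold higher. The array annotation gives this target the placeholder symbol LOC683206 and a title that calls it similar to A20. It was tied to Tnfaip3 by its gene ID.

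Nfkbiz and Nfkbie, the other IkB genes with a target, were slightly lower in TLC-S. Nfkbiz encodes IkB-zeta, an inducible nuclear IkB that acts as a cofactor on a subset of inflammatory genes. It gave 559 in control and 501 in TLC-S, which is 1.12-fold lower, and 24.7% of targets had a ratio at or below this. Nfkbie, for IkB-epsilon, gave 690 and 581, which is 1.19-fold lower, with 20.6% of targets at or below its ratio. The naming of the Nfkbie target is unsure. Its accession and gene ID belong to Nfkbie in RefSeq, but the title in the authors' deposited table is that of Slc35b2, a sulfate-donor transporter of the Golgi and the neighbouring gene in GRCr8. Slc35b2 also has a target of its own, which gave 1406 and 2159, 1.54-fold higher, so that the targets differed in direction.

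**Figure D2:**
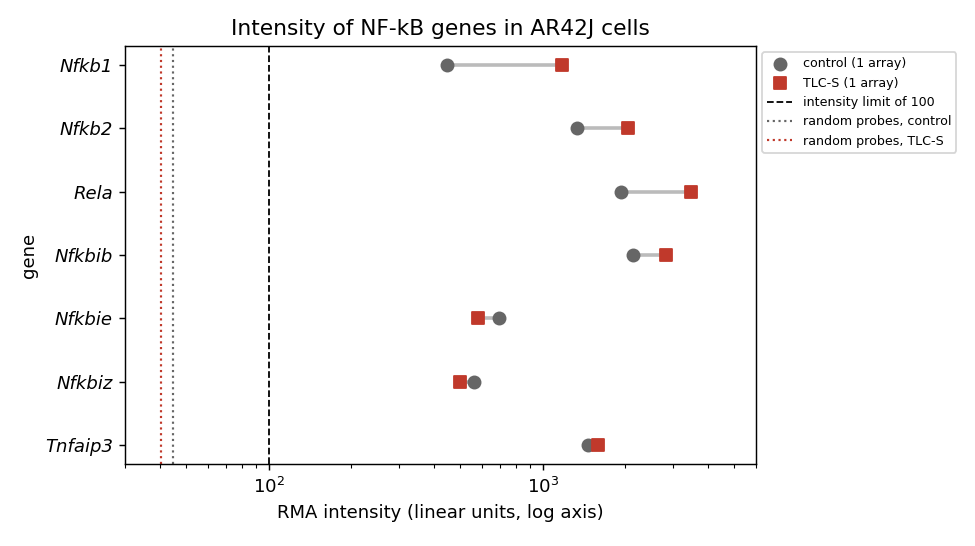
RMA intensity (log axis) of the 7 NF-kB genes with a target on the control array (grey circles) and on the TLC-S array (red squares), 1 array each. All lie above the intensity limit of 100 (dashed) and the random probes (dotted), and Nfkb1 has the widest gap, from 446 to 1179. For Nfkb1, Nfkbiz and Tnfaip3, named by gene ID, a place above 100 was fixed in advance.

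Nfkbiz, described above as a cofactor, is grouped here with the inhibitors. The log2 ratios of the 3 subunits ran from 0.62 to 1.40 and those of the 4 genes grouped as inhibitors from -0.25 to 0.40. These ranges do not overlap, but the nearest pair, Nfkb2 and Nfkbib, differed by less than the SD of 0.42 between targets of 1 gene (580 genes read by at least 2 targets above the limit). A difference between the roles was noticed in these values and was not tested. The median of the 7 members was 0.40 against 0.25 over the 11292 targets. Of the members, 5 lay above 0 and 2 below, and 66.4% of all targets lay above 0.

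Most targets were thus somewhat higher on the TLC-S array, and the members were also read against a loess curve fitted through the ratios by signal. Its subtraction shifted the median of all targets by -0.25. After it, Nfkb1 was 2.12-fold higher (3.67% of targets at least as high), Rela 1.51-fold and Nfkb2 1.26-fold. Nfkbib was 1.10-fold higher. Tnfaip3 changed direction, from a log2 ratio of 0.12 to -0.17. Nfkbiz was then 1.40-fold and Nfkbie 1.48-fold lower, and 17.0% of targets had a ratio at or below that of Nfkbie. The 3 subunits were above 0 and above all 4 inhibitors under both readings. Loess lowered every member by a similar amount, and both readings share the same 2 arrays. The second reading is thus no separate check of that order. With loess 4.54% of all targets passed 2-fold upwards and 6.94% downwards.

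**Figure D3:**
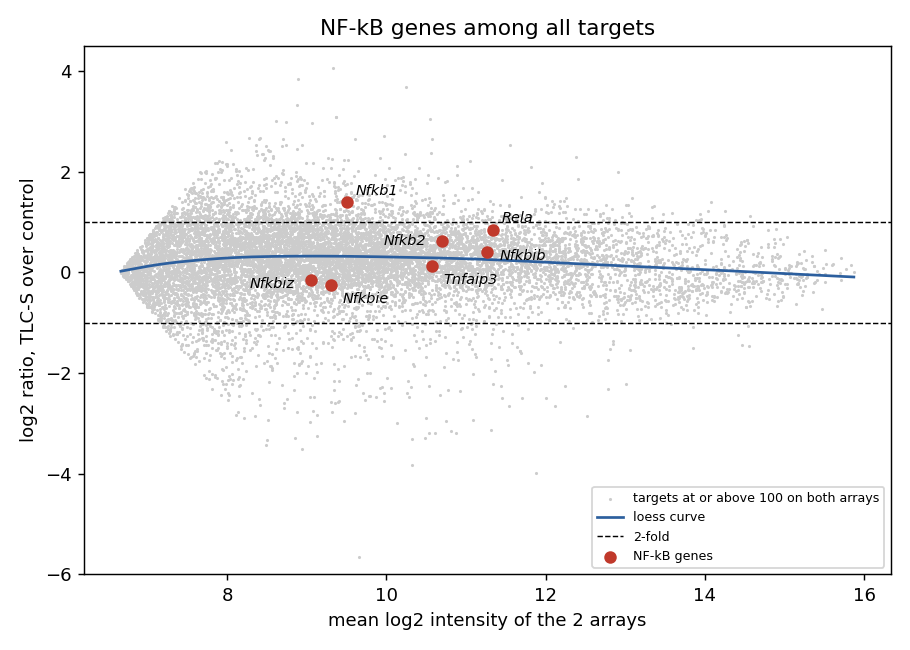
Log2 ratio of TLC-S over control against the mean log2 intensity for the 11292 targets above the intensity limit (grey), with the loess curve in blue, 2-fold lines dashed and the 7 NF-kB genes in red. Nfkb1 is the 1 member outside the 2-fold lines, and Tnfaip3, Nfkbiz and Nfkbie lie below the curve.

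**Figure D4:**
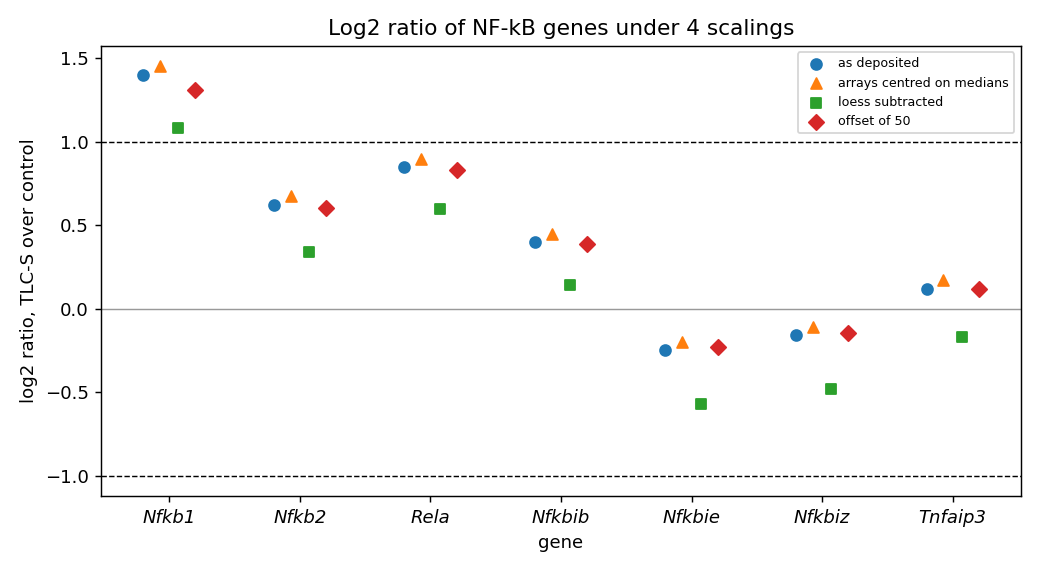
Log2 ratio of TLC-S over control for the 7 NF-kB genes as deposited (circles), after centring each array on its median (triangles), after loess subtraction (squares) and with an offset of 50 added to both intensities (diamonds). Nfkb1 stays above 1 (2-fold, dashed) in all 4, and Tnfaip3 falls below 0 after loess subtraction.

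The rest of the pathway was read with 6 lists holding 150 genes, of which 92 were at 100 or more on both arrays. Of these, 14 (15.2%) passed 2-fold upwards and 2 (2.17%) downwards, against 10.0% and 4.37% of the 10174 genes at that limit. After loess the counts were 9 and 4 (9.78% and 4.35%), against 4.59% and 6.91%. The median log2 ratio was 0.31, beside 0.25 over all genes. Differences from the background were not tested.

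Upstream of the IkB proteins, 4 of 22 receptors and adaptors (18.2%) were at least 2-fold higher and 0 lower. Over all named genes at the limit these shares were 10.0% and 4.37%. After loess 2 (9.09%) were higher and 0 lower, against 4.59% and 6.91%. The log2 ratio was above 0 for 21 of the 22 (95.5%), against 66.3% of all named genes at the limit. After loess it was above 0 for 13 (59.1%), against 49.8%. Traf6, the ubiquitin ligase that links interleukin-1 and Toll-like receptors to IkB kinase, gave 241 in control and 813 in TLC-S, 3.37-fold higher. Myd88, the adaptor shared by most of these receptors, gave 825 and 2058, 2.49-fold higher. Those of Tnfrsf1a, a TNF receptor, were 104 and 221 (2.12-fold), and those of Irak3, a kinase-like protein that restrains Toll-like receptor signalling, were 186 and 391 (2.10-fold). The ratios of these last 2 were under 2-fold after loess. Tlr9, a receptor for microbial DNA, was 31.5 in control, under the random probes, and 230.1 in TLC-S, which makes it at least 2.30-fold higher against the limit of 100. It was singled out after its values were seen. Tnfrsf1b, at 87.5 in control and 248 in TLC-S, had a larger bound, at least 2.48-fold higher. Tlr4 and Ltbr, also under 100 in control alone, were at least 1.16-fold and 1.02-fold higher.

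The kinases that act on IkB proteins and their partners gave small ratios. All 10 genes of this list with a target, which include the regulatory subunit Ikbkg and the adaptors Tab2 and Tab3, reached 100 on both arrays. For genes named by gene ID or by the authors' symbol this was fixed in advance, since the authors list only targets at that limit. Of these 10 genes, 0 passed 2-fold in either direction, against 10.0% upwards and 4.37% downwards over all named genes at the limit. The median log2 ratio of the 10 was 0.02 (-0.28 after loess). Ikbkg, also called NEMO, gave 151 and 199, 1.32-fold higher. Map3k3, an upstream kinase, gave 1127 and 1424, 1.26-fold higher. The catalytic subunits Chuk and Ikbkb, named outside the naming rule for their role, had log2 ratios of -0.23 and 0.31. The IkB-like protein Nfkbil1 gave 226 and 199, and Nkiras1, which binds IkB proteins, gave 150.1 and 122. These log2 ratios were -0.19 and -0.30, and 0 of the 3 genes of that list passed 2-fold.

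Among 20 ubiquitin enzymes and negative regulators 0 passed 2-fold in either direction, against the same 10.0% upwards and 4.37% downwards over all named genes. The median log2 ratio of the 20 was 0.42 (0.17 after loess). Closest to 2-fold was Pdlim2, a nuclear ligase that promotes breakdown of Rela, at 134 and 266, a log2 ratio of 0.99. Next came Otud7b, a deubiquitinase, at 529 and 1036, a log2 ratio of 0.97. With each array centred on its median, 2 genes of this list were past 2-fold higher. After loess the ubiquitin ligase Rnf11 was just past 2-fold lower, from a log2 ratio of -0.71 before it. Of 11 nuclear cofactors, 2 (18.2%) were at least 2-fold higher and 0 lower. After loess 1 (9.09%) was higher, against 4.59% of all named genes at the limit. Sirt1, a deacetylase that acts on Rela, gave 163 and 456, 2.80-fold higher. Hdac2, a histone deacetylase, gave 370.03 and 877, 2.37-fold higher, a log2 ratio of 0.92 after loess.

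Known NF-kB target genes went both ways. Of 54, 52 had a target and 26 reached 100 on both arrays. The median log2 ratio of the 26 was 0.31. Past 2-fold upwards were 8 (30.8%), where all named genes at the limit had a share of 10.0%. Past 2-fold downwards were 2 (7.69%), beside 4.37%. With loess subtracted, 6 (23.1%) were past it upwards, beside 4.59%, and 3 (11.5%) downwards, beside 6.91%. How this list differs from all named genes was not tested. The chemokine Cxcl10 gave 137 and 1109 and the stress gene Gadd45b 143 and 761, 8.10-fold and 5.34-fold higher. Zfp36, which destabilises cytokine mRNAs, gave 241 and 901, 3.75-fold higher. Cd80, a co-stimulatory ligand, gave 111 and 334, 3.00-fold higher. In the opposite direction, Ltb, the membrane partner of lymphotoxin, gave 2153 and 435, 4.95-fold lower, and Irf8, a myeloid and B cell factor, gave 334 and 103, 3.24-fold lower. Named outside the rule and after their values were seen, the remaining genes past 2-fold were the peptide transporter Tap1 (2.95-fold higher), the immunoproteasome subunits Psmb9 (2.19-fold) and Psmb10 (2.32-fold), and Cd83, a surface marker of activated antigen-presenting cells (2.70-fold). Psmb9 and Psmb10 were under 2-fold after loess.

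Many of the classical inflammatory targets were too dim for a ratio. Of the 52 target genes, 21 were under 100 on both arrays, as were 4474 of the 15577 named genes. Named genes are short of dim targets, because naming by gene ID or symbol needed a listing by the authors. Of the named genes 10174 reached 100 on both arrays, and of all 26419 targets 11292 did. The 2 counts under 100 thus cannot show whether target genes are dimmer than other genes. The 21 target genes ranged from 29.3 to 97.6 in control and from 31.7 to 90.7 in TLC-S. Among them the cytokine Tnf gave 59.3 and 55.4, Il6 gave 53.03 and 36.3, and the chemokine Ccl2 gave 36.4 and 47.4. No ratio was drawn from such values. The chemokine Cxcl1, named outside the rule, was 341 in control and 62.9 in TLC-S, at least 3.41-fold lower. Among the other target genes with 1 array under 100, Mx1 was at least 1.71-fold higher. Xiap, Mmp9 and Ccnd1 were at least 1.295-fold, 1.27-fold and 1.15-fold lower.

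**Figure D5:**
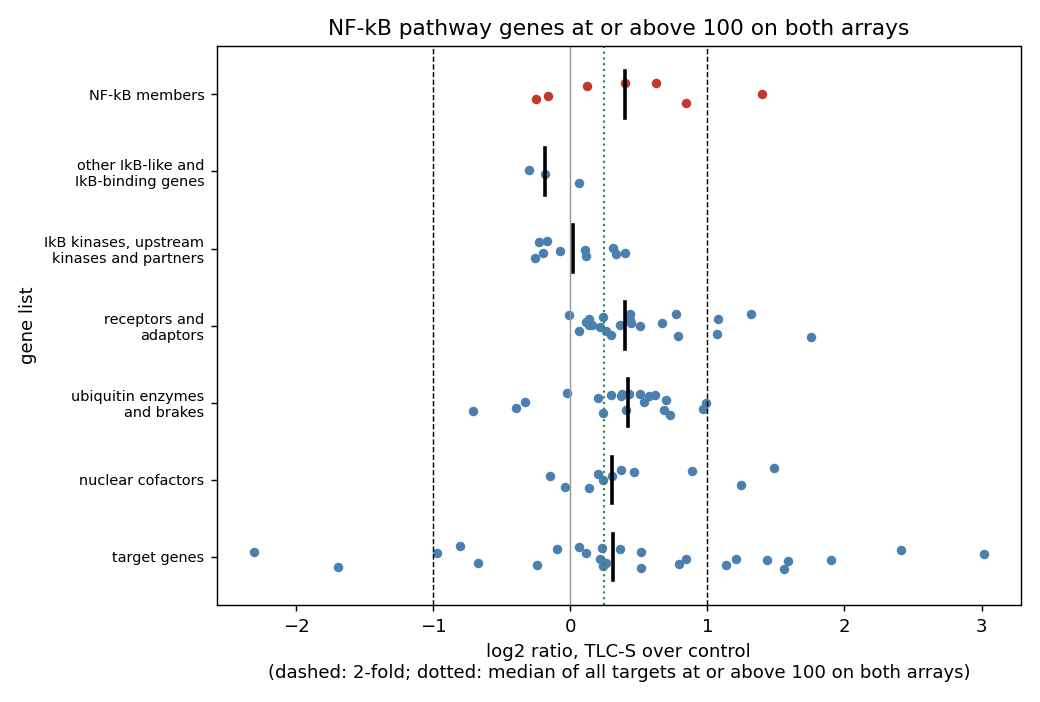
Log2 ratio of TLC-S over control for each gene at 100 or more on both arrays, by list (rows), with black bars at list medians, dashed lines at 2-fold and a dotted line at the median of 0.25 over all targets. The IkB kinases, upstream kinases and partners lie within 2-fold, and the target genes spread from Ltb on the left to Cxcl10 on the right.

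Of the 38 pathways in the authors' deposited pathway table, 5 list a member, in each case Nfkb1 alone. In that authors' deposited table, the Toll-like receptor signaling pathway has 11 listed of 93 genes (p = 0.0137 by Fisher's exact test over genes, false discovery rate 0.115), with Myd88, Traf6, Cd80 and Cxcl10 beside Nfkb1. In the authors' deposited table Chagas disease has the smallest p of the 5, with 15 of 101 genes (p = 0.000421 by Fisher's exact test over genes, false discovery rate 0.00884). Pancreatic cancer has 8 of 68 genes in the authors' deposited table (p = 0.0340 by Fisher's exact test over genes, false discovery rate 0.187). These p-values count genes of the same 2 arrays and no replicates.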

How the data were processed

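Per the labels' protocols, cDNA made from total RNA carried Cy3 and was read on one-colour NimbleGen arrays, 1 for control and 1 for TLC-S. The authors deposited 1 intensity per target and array, on a linear scale; RMA is named, without a version, in the submitters' processing notes, and the sources used here do not state the genome build. The number of probes behind each target is a count in the deposited files. The authors' table of higher genes gives a fold as a ratio and its log2 value, and their pathway table a p-value, per the file headers. The authors' lists of higher and lower genes repeat array values in 4 columns, which were not used.

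Targets were named by RefSeq accession (9747), by gene ID (4950) or by the authors' symbol (1644), with the GRCr8 gene table used for names. Gene IDs and symbols were at hand only for the 11292 targets that the authors list, all at 100 or more on both arrays. Dimmer targets could be named by accession alone. A gene of a list took its brightest target. Log2 ratios were taken as TLC-S over control. The arrays limit the precision through their number, 1 per group. The code for the loess curve (span 0.3, 3 robust iterations) was run on simulated ratios with less spread than the real ones. That run checked the code and cannot show how well the curve suits these arrays. The members and lists were chosen with earlier results of these data known. Named genes are all members and, of each other list, up to 6 genes past 2-fold at 100 or more on both arrays, or the 2 largest ratios where fewer than 2 passed. No genes of like pattern are named, since 2 arrays show none. Promoter sequences are from RefSeq (GRCr8). Alternatives were other deposited values, median centring, loess, an offset of 50, other fold and intensity limits and the mean over targets. Python 3.11.15, numpy 2.4.6, pandas 2.3.3, statsmodels 0.14.6 and matplotlib 3.10.9 were used.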

Additional observations from a re-analysis of the deposited data

How the results depend on the processing

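No paired analysis was possible because there was 1 array for each group, and no replicate could be left out. Under loess, median centring, the offset of 50 and either other deposited source, the 7 members' log2 ratios moved by less than 0.42. That is the SD between targets of 1 gene and no measure of array error. For 2 settings this was fixed in advance: the other sources repeat the same values, and centring adds 0.05 to every ratio. The members' median was 0.40 as deposited and 0.14 after loess, which shifted the median of all targets by -0.25. Tnfaip3, close to 0, was the 1 member whose direction turned, under loess. The 1 member past 2-fold became 3 at 1.5-fold and 0 at 3-fold. For the 92 other pathway genes, 14 higher and 2 lower, the counts were 9 and 4 after loess and 26 and 6 at 1.5-fold. Over all targets at the limit, 27.9% passed 1.5-fold upwards and 9.69% downwards, so that the 26 higher are near the background. Without a limit on intensity, 19 of the 129 pathway genes with a target were higher and 7 lower. No share over all genes was computed for that setting. Of the receptors and adaptors, 4 were higher as deposited and 2 with the offset of 50. The cause of the changes under loess and the offset was not tested. Intensities under 100, some of them under the random probes, limit what can be said of dim genes.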

Other observations

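Genes other than the members were counted by whether their RefSeq promoter holds the kB consensus. Among genes at 100 or more on both arrays, 332 held it and 6679 did not. Of those with it, 14.5% passed 2-fold upwards and 3.92% downwards, against 10.8% and 2.93% of those without it. After loess the shares were 7.53% and 6.33%, against 4.75% and 5.03%. The median log2 ratios were 0.36 and 0.30. The difference was not tested, and genes of 1 array pair are not replicates. In the list of known target genes, 14 of 43 promoters (32.6%) held the consensus, against 4.18% of 33469 rat promoters. The receptors and adaptors had 6 of 29 (20.7%) and the list of IkB kinases and partners 2 of 10 (20%). Other IkB-like and IkB-binding genes had 1 of 7, ubiquitin enzymes and negative regulators 1 of 20 and nuclear cofactors 0 of 11. Where a pathway gene had several targets, these did not always give the same ratio: the targets of Traf3 had log2 ratios of -0.00988 and 0.77, those of Cflar -0.97 and -0.29, and those of Ripk2 0.67 and 0.45.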
